A study of Mus musculus with 16 samples.

Results

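The T cell receptor (TCR) signalling machinery was followed as 36 genes, from the CD3 chains to the adaptors, calcium channel and inhibitors behind them, out of the 53090 genes quantified in each library. The members were taken by gene symbol and sorted by role into 7 receptor chains and surface partners, 5 kinases, 11 adaptors and effectors, 2 genes of calcium entry and 11 negative regulators. RNA was sequenced from splenic CD4+ T cells of WT mice (C57BL/6) and of Aim2-/- mice, which lack the DNA sensor AIM2 in every cell and are on the C57BL/6 background. Naïve cells (Tn), which were CD44 low and CD62L high and had been isolated with magnetic beads, were taken fresh. For stimulating CD4+ T cells the paper names antibodies to CD3 and CD28, which it does not repeat for its Treg culture. The cells called Treg had been stimulated and had spent 48 h with recombinant human TGF-beta and recombinant mouse IL-2. They are therefore a whole culture early in differentiation, not sorted FOXP3+ cells. Each of the 4 groups (WT Tn, Aim2-/- Tn, WT Treg, Aim2-/- Treg) had 4 libraries. The study worked with sex- and age-matched mice, and the age was not given in the sources used here. The labels number the mice of a group, but nothing states that libraries of different groups came from different animals or cultures, so p-values measure the spread between these libraries.

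The TCR has no enzyme of its own. When it binds its ligand, LCK, held by the CD4 coreceptor, phosphorylates the CD3 and zeta chains, ZAP70 docks on them and phosphorylates the adaptors LAT and SLP-76, and the complex built there drives phospholipase C, RAS, calcium entry and NF-kB. Phosphatases, ubiquitin ligases and diacylglycerol kinases dampen the same steps. An antibody to CD3 engages this receptor. If the stimulation of the Treg culture used it, as is taken here, every Treg library comes from cells grown with it.

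The libraries held 22516424 to 34533316 counts, so 3 counts, taken as the floor, were 0.0869 to 0.133 CPM (counts scaled to library size), and no member came near that floor: the lowest value of any was 12.1 CPM. Aim2 itself was at 32.3 to 43.3 CPM in the 8 WT libraries and at 6.61 to 10.8 CPM in the 8 Aim2-/- libraries, as the labels call for. All 5 defining CD4 T cell markers (Cd4, Cd3d, Cd3e, Cd3g and Trac) were expressed in every group, and all but Trac are members. The summed NK cell list was higher in Tn (13.0 to 35.0 CPM) than in Treg libraries (1.33 to 6.22 CPM), as were the myeloid list (32.8 to 47.2 against 25.2 to 28.8 CPM), the CD8 T cell list (8.94 to 12.2 against 2.26 to 4.02 CPM) and the erythroid list (0.672 to 4.99 against 0.0337 to 0.148 CPM). Single genes weighed heavily in these sums. The CD8 sum was nearly all Cd8b1, as Cd8a reached only 0.136 CPM in Tn and 0.337 CPM in Treg libraries. Eomes made up most of the NK sum. Cst3, the largest of the myeloid list, overlapped between states (19.1 to 31.3 against 22.4 to 26.4 CPM). The B cell list of 8 genes was at 1.19 to 2.58 CPM in Tn and 2.23 to 5.21 CPM in Treg libraries, ranges that overlap, with Ms4a1 at 0 in all 16. All these sums are small beside the 1117 to 3359 CPM of the CD4 T cell markers, most of which are members. The part of these other lists in the results was not tested. In WT Tn, libraries 1 and 2 stood apart from 3 and 4: the correlation of log2 CPM was 0.989 and 0.988 within these pairs and 0.972 to 0.981 across them. Of 8552 genes averaging over 10 CPM, 73.6% had both of one pair above both of the other, as did 25 of the 36 members. Among Treg libraries, WT library 4 and Aim2-/- libraries 3 and 4 likewise differed from the other 5 (35.2% of the same genes, 15 of 36 members). Where leaving these libraries out changed a call, or moved a called value by over 1.5 times, the value without them is given.

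In naïve cells the members made up 1.39% to 1.57% of all counts, and in Treg cells 0.767% to 0.862%, with no overlap. All 36 passed the filter on low counts in every comparison. With culture in WT cells, 27 of the 36 members fell and 2 rose by the quasi-likelihood test of edgeR, with p-values adjusted after Benjamini and Hochberg over all 13675 genes tested. Culture changed most of the transcriptome: among all genes, 39.2% were called lower and 37.7% higher. In Aim2-/- cells 27 members fell and 4 rose, where 40.2% of 13713 genes were called lower and 39.1% higher. The members' median log2 change was -0.69 in WT and -0.74 in Aim2-/- cells, and that of all genes -0.052 and -0.036. Libraries did not overlap between Tn and Treg for 27 members lower and 2 higher in WT (35.7% and 37.2% of all genes) and for 27 lower and 3 higher in Aim2-/- cells (37.5% and 37.3%). These genotypes share no library in this comparison, and 26 members fell in both, that is 26 of the 27 of each. Among all genes, 4926 fell in both, which is 91.9% of those lower in WT and 89.3% of those lower in Aim2-/- cells. In bulk samples such as these, fewer cells of a type and less RNA per cell cannot be told apart, and CPM values are shares of a library.

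**Figure D1:**
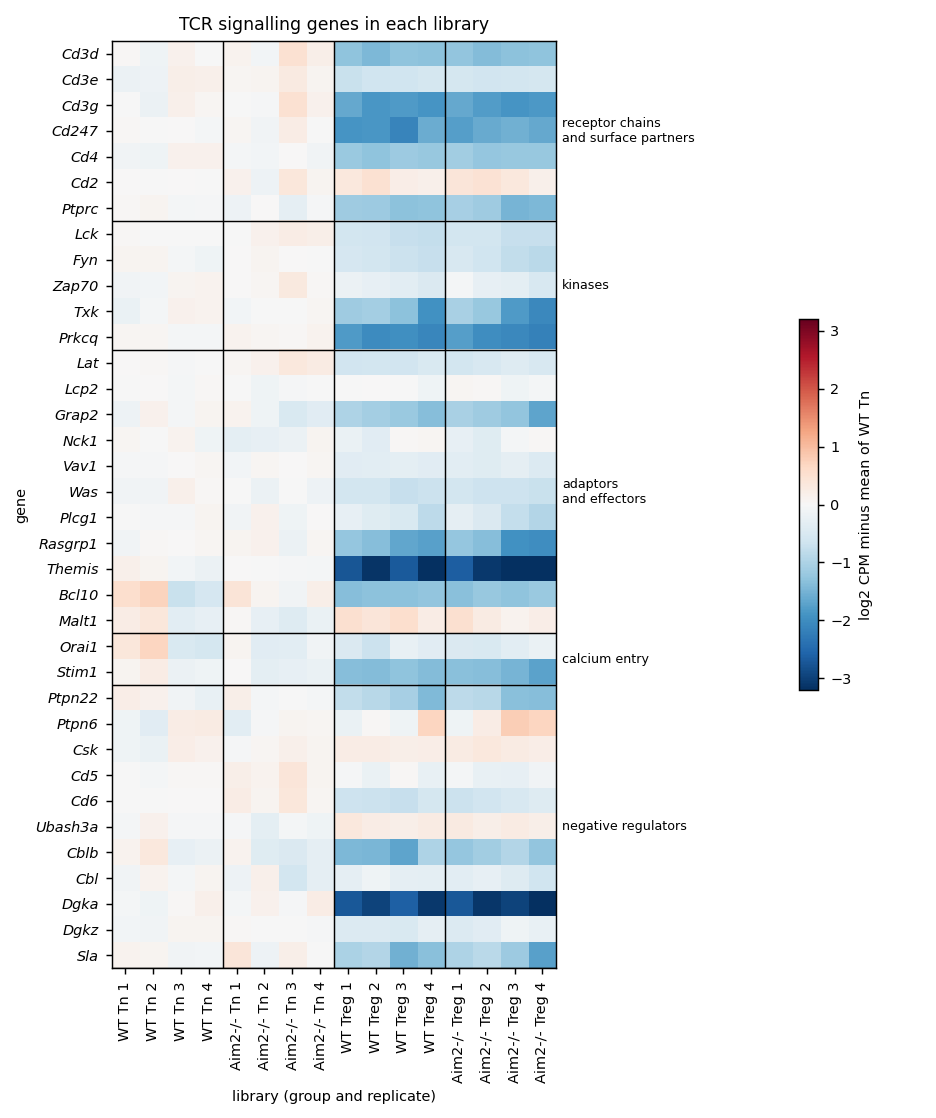
Level of each member (rows, by role) in each of the 16 libraries (columns) as log2 CPM minus the mean of the 4 WT Tn libraries; blue is lower and red is higher. The 8 Treg columns are blue for most rows, deepest for Themis and Dgka, while Cd2, Malt1, Csk and Ubash3a are pale red and Lcp2 and Nck1 nearly white.

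The receptor chains fell unequally. Cd3d, Cd3e and Cd3g encode the CD3 delta, epsilon and gamma chains, which carry a single activation motif each, and Cd247 encodes the zeta chain, which carries several. Cd3g, Cd3d and Cd3e lie side by side on chromosome 9 (GRCm38), Cd3g at chr9:44969572-44980431 on the minus strand, Cd3d at chr9:44981786-44987339 on the plus strand and Cd3e at chr9:44998740-45009627 on the minus strand. The starts of Cd3g and Cd3d are 1355 bases apart and face away from each other. Cd247 lies alone at chr1:165788681-165877277 on the plus strand, 7.47 Mb from Aim2.

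Because these 4 chains assemble into the same receptor and moved by different amounts, the 250 bases before each start are shown 5′ to 3′ on the gene's strand, from RefSeq on GRCm38.p6 (Cd3d chr9:44981536-44981785, Cd3g chr9:44980432-44980681, Cd3e chr9:45009612-45009861, Cd247 chr1:165788431-165788680). Capitals mark AGGAAG or its reverse complement CTTCCT, a core of ETS factor motifs, and CAGGTG or CACCTG, an E-box.
Cd3d: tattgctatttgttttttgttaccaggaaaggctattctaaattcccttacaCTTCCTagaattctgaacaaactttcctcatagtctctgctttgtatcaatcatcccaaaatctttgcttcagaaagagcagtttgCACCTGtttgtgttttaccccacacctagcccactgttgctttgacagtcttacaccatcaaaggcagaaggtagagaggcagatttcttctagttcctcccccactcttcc
Cd3g: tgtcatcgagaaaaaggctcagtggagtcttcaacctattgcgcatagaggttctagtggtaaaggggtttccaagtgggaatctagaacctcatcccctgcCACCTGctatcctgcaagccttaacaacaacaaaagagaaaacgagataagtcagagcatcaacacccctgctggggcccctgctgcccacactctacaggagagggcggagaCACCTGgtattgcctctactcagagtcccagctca
Cd3e: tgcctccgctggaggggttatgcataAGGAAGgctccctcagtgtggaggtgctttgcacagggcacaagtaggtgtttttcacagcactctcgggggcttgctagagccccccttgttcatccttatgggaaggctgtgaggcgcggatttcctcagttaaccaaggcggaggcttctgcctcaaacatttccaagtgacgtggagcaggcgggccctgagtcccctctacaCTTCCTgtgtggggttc
Cd247: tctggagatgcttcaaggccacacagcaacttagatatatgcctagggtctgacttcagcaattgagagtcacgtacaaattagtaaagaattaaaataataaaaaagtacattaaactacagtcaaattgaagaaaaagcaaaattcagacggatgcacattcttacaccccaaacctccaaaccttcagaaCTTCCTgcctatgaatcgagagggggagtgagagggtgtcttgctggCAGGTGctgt
The ETS letters stood 2 times in the window of Cd3e, 1 time each in those of Cd3d and Cd247 and not in that of Cd3g, which held the E-box 2 times. The Cd3e window, set by the RefSeq start, runs past the edge of the gene given above (45009627). Its second ETS copy lies across that edge. Cd3d and Cd247 held 1 E-box each and Cd3e none. Neither TGTGGT, the RUNX core, nor TATAAA, searched on both strands like the others, was in any of the 4 windows. Such windows were found for 31 members (the nearest to the annotated start where several exist), with none for Cd4, Cd2, Cd6, Sla and Malt1. The ETS letters were in 19 of the 31 (61.3%) and in 29.5% of all 32851 windows, the E-box in 11 (35.5%) against 17.2%, TGTGGT in 2 (6.45%) against 14.0% and TATAAA in 1 (3.23%) against 12.4%. The 32851 windows were not cut to 1 per gene, nor to genes expressed in these cells, so these shares come from unlike sets. These are letters in a window, not sites shown to be bound.

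Cd247 was at 517, 500, 504 and 482 CPM in WT Tn libraries 1 to 4 and at 136, 138, 116 and 165 CPM in WT Treg. Aim2-/- cells had 526, 464, 593 and 496 CPM in Tn and 148, 162, 173 and 161 CPM in Treg. Every Treg library was thus below every Tn library, by 3.69-fold in WT (log2 change -1.88, SE 0.10, adjusted p = 1.38e-07) and 3.25-fold in Aim2-/- cells (-1.70, SE 0.09, adjusted p = 1.72e-08). Cd3g was at 418, 368, 468 and 438 CPM in WT Tn, 416, 413, 588 and 467 CPM in Aim2-/- Tn, 136, 116, 120 and 114 CPM in WT Treg and 135, 122, 114 and 117 CPM in Aim2-/- Treg. It parted Tn from Treg as clearly, with log2 changes of -1.83 (SE 0.09) and -1.96 (SE 0.12). Cd3d fell by 1.37 and 1.51 on the log2 scale. Cd3e fell least of the chains, by 0.68 (SE 0.10) in WT and 0.73 (SE 0.08) in Aim2-/- cells, from 324 ± 46.9 to 207 ± 9.07 CPM in WT (SD, n = 4).

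Levels per length show how the order of the chains turned over. In CPM per kb of exon, WT Tn cells had Cd3d at 210 ± 15.6, Cd3g at 129 ± 12.9, Cd247 at 93.9 ± 2.73 and Cd3e at 79.4 ± 11.5 (SD, n = 4). In WT Treg cells Cd3d stayed highest at 83.2 ± 4.07, followed by Cd3e at 50.7 ± 2.22, Cd3g at 37.2 ± 3.04 and Cd247 at 26.0 ± 3.83. The place of Cd3d depends on the exon lengths used, which count all annotated exons of a gene. In CPM it was below Cd247 in WT Tn (347 to 415 against 482 to 517) and below Cd3e in WT Treg (140 to 157 against 195 to 218). Cd247 was above Cd3e in each of the 8 Tn libraries and below it in each of the 8 Treg libraries. A ratio within a library does not depend on scaling between libraries, and the log2 ratio of Cd247 to Cd3e went from 0.25 ± 0.24 in WT Tn to -0.97 ± 0.18 in WT Treg and from 0.17 ± 0.09 to -0.80 ± 0.11 in Aim2-/- cells. That of Cd3g to Cd3e went from 0.71 ± 0.13 to -0.45 ± 0.18 in WT and from 0.72 ± 0.14 to -0.49 ± 0.11 in Aim2-/- cells. Tn and Treg libraries did not overlap in either ratio, nor in that of Cd3d to Cd3e (1.41 ± 0.17 to 0.71 ± 0.11 in WT). Counts of Cd3e and Cd247 were not whole in any library, so that some of their reads were shared out among genes by the authors' quantification, and Cd247 overlaps Pou2f1 on the other strand.

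Of the surface partners, Cd4, the coreceptor that brings LCK, fell by 1.24 (SE 0.08) in WT and 1.14 (SE 0.07) in Aim2-/- cells on the log2 scale, from 900 ± 92.6 to 389 ± 14.8 CPM in WT. Ptprc, the CD45 phosphatase that keeps LCK active, fell by 1.25 and 1.16, from 1770 ± 77.3 to 758 ± 45.9 CPM in WT. Cd2, an adhesion receptor that aids TCR signalling, was the exception among the 7. It was called higher in WT only (0.28, SE 0.08, adjusted p = 0.00828), and its log2 change in Aim2-/- cells was 0.22 (SE 0.11, adjusted p = 0.097). Without Aim2-/- Tn library 3, which had the highest Tn value (377 CPM), the latter was 0.26 with adjusted p = 0.0376, and without Aim2-/- Treg library 4 it was 0.32 with adjusted p = 0.0291. It was also called without Aim2-/- Treg libraries 3 and 4 (0.36, adjusted p = 0.0306), with no filter and in 1 fit of all 16 libraries (0.26 and 0.23, adjusted p = 0.0473 and 0.0487).

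All 5 kinases fell in both genotypes. Prkcq, protein kinase C theta, which links the receptor to NF-kB, fell most: it was at 477, 472, 435 and 435 CPM in WT Tn and 129, 112, 117 and 107 CPM in WT Treg. The Aim2-/- libraries gave 489, 478, 463 and 492 CPM in Tn and 133, 115, 108 and 101 CPM in Treg. The 4.00-fold and 4.24-fold falls (log2 change -2.00, SE 0.08, and -2.08, SE 0.10, adjusted p = 1.77e-08 and 4.31e-09) left the states far apart. Txk, a TEC family kinase, was at 87.8, 98.4, 113 and 111 CPM in WT Tn and 46.7, 47.7, 40.8 and 26.5 CPM in WT Treg. Its Aim2-/- values were 96.6, 101, 102 and 106 CPM in Tn and 49.4, 44.1, 28.8 and 24.4 CPM in Treg. The states did not overlap (log2 change -1.37, SE 0.18, and -1.47, SE 0.20), and within Treg cells the 3 lowest values were those of WT library 4 and Aim2-/- libraries 3 and 4.

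The kinases at the top of the cascade fell less. Lck went from 1045 ± 23.5 to 659 ± 41.0 CPM in WT (log2 change -0.70, SE 0.06, and -0.81, SE 0.08, in Aim2-/- cells), and Fyn, the other SRC family member, by nearly the same amount (-0.67 and -0.72). The log2 ratio of Lck to Fyn per length was accordingly 2.10 ± 0.10 in WT Tn and 2.07 ± 0.01 in WT Treg, with overlapping libraries in both genotypes. Zap70, which docks on the phosphorylated chains, fell least (-0.34, SE 0.08, and -0.40, SE 0.11). Without Aim2-/- Treg libraries 3 and 4 the Zap70 change in Aim2-/- cells was -0.22 and was no longer called (adjusted p = 0.114).

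**Figure D2:**
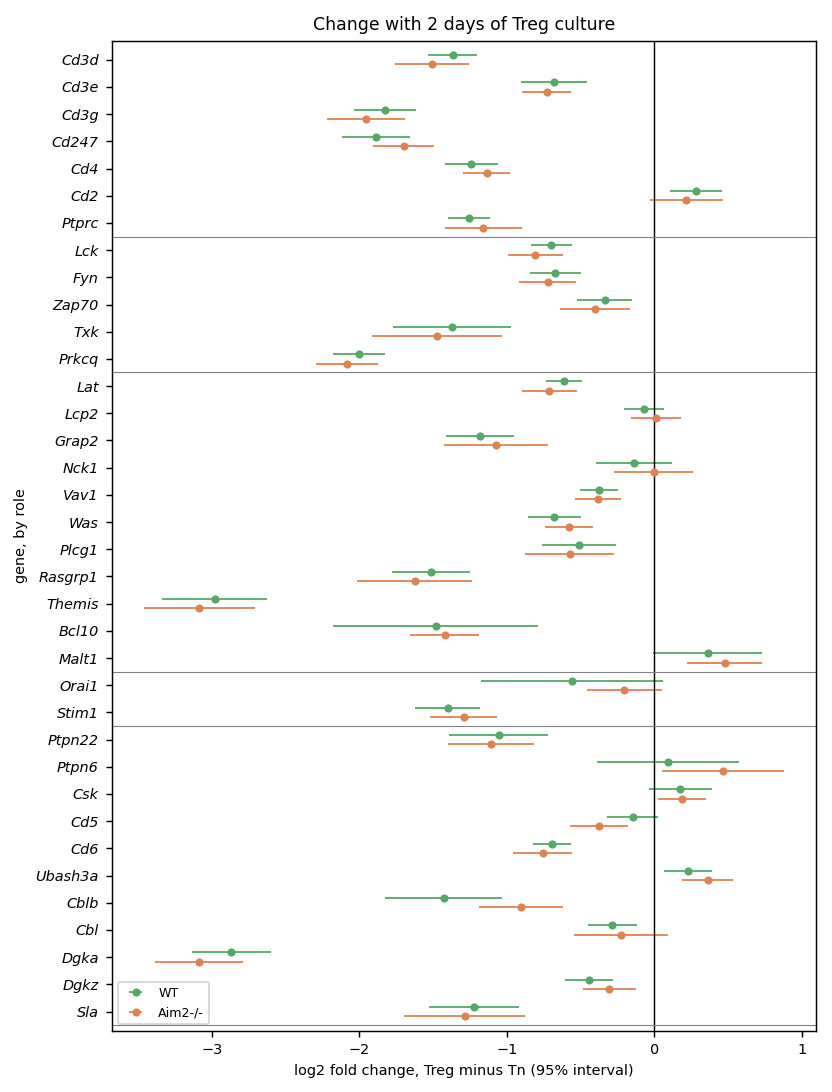
Log2 fold change from Tn to Treg (x axis) of each member (y axis, lines between role classes) in WT and Aim2-/- cells, with 95% intervals from edgeR. Points run from about 3 units below 0 (Themis, Dgka) to less than 0.5 above it. The WT and Aim2-/- points lie near each other for most genes and are farthest apart for Cblb (by 0.52).

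Of the 11 adaptors and effectors, 8 fell in both genotypes and none rose in both. Themis, which is needed in thymocyte selection and binds the adaptor GRB2, fell most of all members. It was at 158, 151, 134 and 125 CPM in WT Tn and 21.4, 16.1, 21.9 and 14.1 CPM in WT Treg. Aim2-/- Tn held it at 142, 139, 137 and 135 CPM and Aim2-/- Treg at 22.8, 16.6, 14.2 and 12.1 CPM. The highest Treg library was thus far below the lowest Tn library, and the falls were 7.89-fold in WT and 8.49-fold in Aim2-/- cells (log2 change -2.98, SE 0.16, and -3.09, SE 0.17).

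Rasgrp1, the exchange factor through which diacylglycerol activates RAS, was at 314, 346, 344 and 353 CPM in WT Tn and 145, 131, 108 and 101 CPM in WT Treg. Its Aim2-/- values were 358, 374, 298 and 352 CPM in Tn and 145, 132, 88.6 and 85.6 CPM in Treg. Both states were apart in each genotype (log2 change -1.52, SE 0.12, and -1.62, SE 0.18), with WT Treg library 4 and Aim2-/- Treg libraries 3 and 4 lowest. Grap2, whose product GADS joins LAT to SLP-76, fell by 1.18 and 1.08 on the log2 scale. Smaller falls were called for Lat, the membrane scaffold (-0.61 and -0.71), Was, the actin regulator WASP (-0.68 and -0.58), Plcg1, phospholipase C gamma 1 (-0.51 and -0.57), and Vav1, a RAC exchange factor (-0.38 in both). Without Aim2-/- Treg libraries 3 and 4 the Plcg1 change in Aim2-/- cells was -0.29 (adjusted p = 0.0413), and Plcg1 counts were not whole in any library.

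The remaining adaptors were not called lower in both genotypes, apart from Bcl10. Lcp2, which encodes SLP-76, had log2 changes of -0.067 (95% interval -0.20 to 0.068) in WT and 0.012 (-0.16 to 0.18) in Aim2-/- cells, and Nck1, a linker to actin, -0.14 (-0.40 to 0.12) and -0.0045 (-0.27 to 0.26). The complex that carries the signal to NF-kB behaved unequally. Bcl10 fell (-1.48, SE 0.31, and -1.42, SE 0.11), with a WT change of -0.77 without WT Tn libraries 1 and 2 and of -2.00 without 3 and 4, still called in both. Malt1, the protease bound to it, was called higher in Aim2-/- cells (0.48, SE 0.12, adjusted p = 0.00257) and missed the threshold in WT (0.36, SE 0.16, adjusted p = 0.0689). The Malt1 miss in WT held in only 8 of 19 alternatives: it was called there by DESeq2 (0.40, adjusted p = 0.0241) and limma-voom (0.39, adjusted p = 0.0494), with RLE factors, without TMM factors, in 1 fit of all 16 libraries, and without WT Tn library 1, WT Tn library 2 or WT Treg library 4 (0.42, 0.47 and 0.46). Without both WT Tn libraries 1 and 2 it was 0.65 (adjusted p = 0.000257), and without 3 and 4 it was 0.066 (adjusted p = 0.534). The log2 ratio of Bcl10 to Malt1 per length went from 1.42 ± 0.37 to -0.32 ± 0.17 in WT and from 1.78 ± 0.03 to -0.11 ± 0.22 in Aim2-/- cells, without overlap between states.

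Calcium entry runs through STIM1, the sensor of the endoplasmic reticulum, and ORAI1, the channel it opens. Stim1 was at 173, 192, 144 and 149 CPM in WT Tn and 63.3, 62.3, 66.5 and 62.2 CPM in WT Treg. In Aim2-/- cells it was at 165, 132, 136 and 140 CPM in Tn and 64.3, 63.1, 58.0 and 50.2 CPM in Treg, so that states did not overlap in either genotype (log2 change -1.40, SE 0.10, and -1.29, SE 0.10). Orai1 was not called in either (-0.56, SE 0.27, adjusted p = 0.0882, and -0.20, SE 0.12, adjusted p = 0.126). In WT it was called without Tn library 3 (-0.71, adjusted p = 0.0263) or 4 (-0.73, adjusted p = 0.0219), and in 1 fit of all 16 libraries (-0.53, adjusted p = 0.0412). Its change there was -1.01 without Tn libraries 3 and 4 (adjusted p = 0.000189) and 0.023 without Tn libraries 1 and 2. In Aim2-/- cells it was called without Tn library 2 or 3 (-0.31 each, adjusted p = 0.0353 and 0.0358).

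Most negative regulators fell as well. Of 11, 7 fell in WT and 7 in Aim2-/- cells, and Ubash3a alone rose in both. Dgka, the diacylglycerol kinase alpha that removes the activator of RASGRP1, was at 1366, 1303, 1475 and 1619 CPM in WT Tn and 219, 184, 234 and 169 CPM in WT Treg. The corresponding Aim2-/- levels were 1364, 1567, 1405 and 1688 CPM in Tn and 219, 166, 184 and 146 CPM in Treg. The falls of 7.30-fold and 8.49-fold (log2 change -2.87, SE 0.12, and -3.08, SE 0.14) were close to those of Themis. Dgkz, the zeta kinase with the same reaction, changed by -0.44 (SE 0.07) and -0.30 (SE 0.08), so that the log2 ratio of Dgka to Dgkz per length turned from 1.74 ± 0.06 to -0.70 ± 0.30 in WT and from 1.80 ± 0.17 to -0.99 ± 0.33 in Aim2-/- cells. Counts of both genes were not whole in any library, and Dgka overlaps Pmel on the other strand.

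Cblb, a ubiquitin ligase that sets the need for costimulation, was at 206, 243, 159 and 167 CPM in WT Tn and 70.4, 69.3, 58.9 and 95.8 CPM in WT Treg. Its Aim2-/- values were 206, 146, 138 and 155 CPM in Tn and 81.4, 88.2, 98.7 and 78.8 CPM in Treg. It fell in both (log2 change -1.43, SE 0.18, and -0.90, SE 0.13), with no overlap between states. Its relative Cbl was called lower in WT only (-0.29, SE 0.07, against -0.23, SE 0.15, in Aim2-/- cells), and without Aim2-/- Tn library 3, the lowest at 200 CPM, it was called in Aim2-/- cells too (-0.39, adjusted p = 0.0184). The WT call of Cbl was lost in 1 fit of all 16 libraries (-0.25, adjusted p = 0.0669).

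Ubash3a, a phosphatase-like suppressor of TCR signalling, was at 98.0, 113, 98.4 and 99.2 CPM in WT Tn and 130, 121, 116 and 122 CPM in WT Treg. With Aim2 deleted the values were 99.0, 81.6, 97.1 and 91.9 CPM in Tn and 124, 116, 122 and 116 CPM in Treg. The Treg libraries were above the Tn libraries in both genotypes, by a small margin in WT (log2 change 0.23, SE 0.07, adjusted p = 0.0161) and more in Aim2-/- cells (0.36, SE 0.08, adjusted p = 0.00123). In WT the call was lost without Tn library 1 (0.19, adjusted p = 0.0501) and without Tn libraries 3 and 4 (0.16, adjusted p = 0.0895).

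Among the other inhibitors, Sla, an adaptor that promotes receptor degradation, fell by 1.22 and 1.28 on the log2 scale. On the same scale Ptpn22, a phosphatase, fell by 1.06 and 1.10, and Cd6, a surface scaffold, by 0.69 and 0.76. Cd5, a surface inhibitor whose level follows TCR signal strength, was called lower in Aim2-/- cells (-0.38, SE 0.09) and not in WT (-0.15, SE 0.08, adjusted p = 0.104). Without WT Tn libraries 1 and 2 it was called in WT as well (-0.24, adjusted p = 0.0300). Csk, the kinase that shuts LCK off, was called higher in Aim2-/- cells only (0.19, SE 0.07, adjusted p = 0.0346, against 0.18, SE 0.09, adjusted p = 0.115 in WT). The Aim2-/- call was lost without Tn library 1, 2 or 4 (0.10 to 0.14, adjusted p = 0.129 to 0.258), and with 10 counts required in every library (0.16, adjusted p = 0.0690). In WT Csk was called without Tn library 3 (0.24, adjusted p = 0.0445), without 3 and 4 (0.34, adjusted p = 0.000639) and in 1 fit of all 16 libraries (0.21, adjusted p = 0.0322), and was at -0.035 without Tn libraries 1 and 2. The log2 ratio of Lck to Csk per length, in contrast, parted the states in both genotypes, at 1.83 ± 0.22 in WT Tn and 0.95 ± 0.07 in WT Treg, and 1.89 ± 0.03 and 0.90 ± 0.06 in Aim2-/- cells.

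Ptpn6, the SHP-1 phosphatase, was called higher in Aim2-/- cells (0.47, SE 0.19, adjusted p = 0.0399) and not in WT (0.09, SE 0.21, adjusted p = 0.706). It is given by library, as one of the genes picked out after their values were seen: 276, 235, 356 and 363 CPM in WT Tn, 240, 295, 324 and 317 CPM in Aim2-/- Tn, 263, 310, 277 and 491 CPM in WT Treg and 274, 358, 518 and 488 CPM in Aim2-/- Treg. The 3 high values were in WT Treg library 4 and Aim2-/- Treg libraries 3 and 4, and Tn and Treg overlapped in each genotype. The Aim2-/- call was lost without any of Tn libraries 1 to 4 or Treg libraries 3 or 4 (0.32 to 0.46, adjusted p = 0.0747 to 0.163), and without both Treg libraries the change was 0.16 (adjusted p = 0.349). Ptpn6 counts were not whole in any library.

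**Figure D3:**
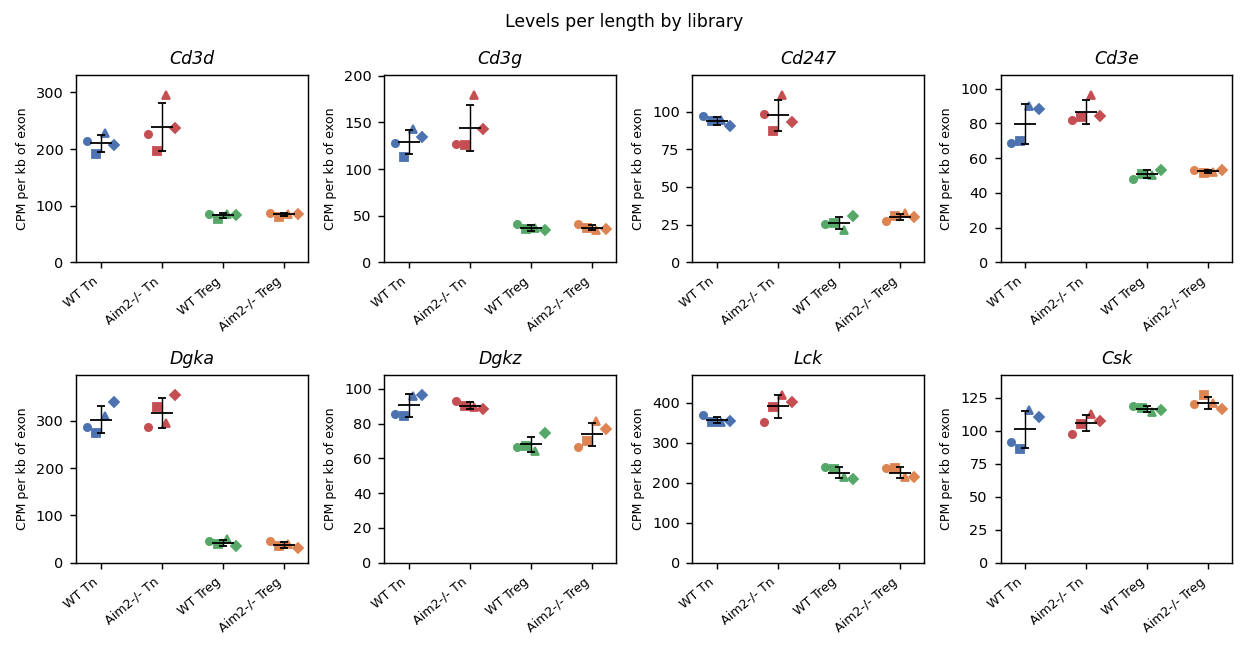
Levels in CPM per kb of exon (y axis from 0) of 8 members in each library of the 4 groups (x axis); points are libraries, black bars the mean and SD of 4. Dgka drops below Dgkz, and Cd3g and Cd247 drop below Cd3e, while Csk does not fall with Lck.

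In levels per kb of exon, several members changed places with a relative that is not a member. Orai1 to Orai2 went from -1.17 ± 0.75 to 1.57 ± 0.63 in log2 ratio per length in WT, as Orai2 fell by 3.14 (SE 0.24). Nck1 to Nck2 went from -0.86 ± 0.16 to 1.11 ± 0.10, as Nck2 fell by 2.11 (SE 0.14). In the opposite sense, Stim1 to Stim2 went from 0.64 ± 0.09 to -1.06 ± 0.06, with a rise of Stim2 by 0.31 (SE 0.07), and Ubash3a to Ubash3b from 1.05 ± 0.12 to -1.03 ± 0.25, with a rise of Ubash3b by 2.32 (SE 0.13). In Aim2-/- cells these ratios ran from -1.26 ± 0.28 to 1.89 ± 0.84, from -1.12 ± 0.24 to 0.98 ± 0.09, from 0.39 ± 0.13 to -1.17 ± 0.09 and from 1.09 ± 0.04 to -1.06 ± 0.31. For all 4 pairs the ratios per length of Tn and Treg libraries lay on opposite sides of 0 in both genotypes. This depends in part on the exon lengths used. In CPM, Orai1 stayed below Orai2 in WT Treg libraries 1 (29.6 against 38.8) and 2 (25.3 against 29.5). The same held in Aim2-/- Treg library 1 (29.7 against 40.2 CPM), and Stim1 was above Stim2 in WT Treg library 3 (66.5 against 65.4 CPM). For none of the 21 pairs compared did the WT and Aim2-/- libraries part, in Tn or in Treg.

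Around the members, 121 other genes of the pathway in 7 lists moved in both directions. With culture in WT 32 were called higher and 63 lower of 119 tested, and in Aim2-/- cells 39 and 66 of 120. Among all genes tested, 37.7% were called higher and 39.2% lower in WT, and 39.1% and 40.2% in Aim2-/- cells. Among 8 other receptor chains and costimulators, 6 fell in WT and 1 rose, with Trat1, a TCR-associated membrane adaptor, at -3.71 (SE 0.24) and the costimulator Cd28 at -1.74 (SE 0.34), while Cd81 rose by 1.11 (SE 0.11). Of 12 other kinases tested in WT, 4 fell, among them the PI3-kinase subunit Pik3cd (-1.48, SE 0.08), and 3 rose, with Map3k7 at 1.42 and Prkca at 1.26. Of 24 other adaptors and exchange factors 17 fell, led by Tespa1 (-2.87) and Itpkb (-2.32), and 5 rose, led by Plcg2 (2.77), which stayed low at 2.87 ± 0.481 CPM in WT Treg, and Vav2 (0.82).

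Further down the pathway both directions were present in every list, as they were among all genes. Of 13 RAS and MAP kinase genes 5 rose in WT, with Hras at 1.19 and Nras at 0.88, and 3 fell, with Mapk14 at -1.11. Of 13 genes of the NF-kB branch 4 rose, with Traf6 at 1.77 and Nfkb1 at 1.24, and 6 fell, with the inhibitor Nfkbia at -2.85 and Ikbkb at -1.55. Of 17 calcium and NFAT genes 5 rose, with Calm3 at 0.95, and 8 fell, with Orai2 at -3.14 and the calcineurin subunit Ppp3ca at -1.98. Of 32 other negative regulators 9 rose, led by Ubash3b (2.32) and Spry1 (1.85), and 19 fell. The NF-kB inhibitor Tnfaip3, or A20, fell by 6.32 (SE 0.45), from 3141 ± 1594 to 40.1 ± 9.22 CPM, and the PI3-kinase inhibitor Pik3ip1 had a log2 change of -4.76 (SE 0.24).

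The study asked what loss of AIM2 does to these cells. For the receptor machinery in naïve cells, no member of the 36 passed the test between Aim2-/- and WT (edgeR, smallest adjusted p = 0.437), where 0.231% of 13441 genes did. At an unadjusted p under 0.05 there were 3 members, against 10.3% of all genes, and neither DESeq2 nor limma-voom called any. Log2 changes ran from -0.27 (Orai1) to 0.21 (Lat), with a median of 0.018 for the members and 0.014 for all genes. The 95% intervals of all 36 lay within 1 log2 unit of 0, and those of 31 within 0.5.

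The 3 members nearest to a call were all higher in Aim2-/- Tn and were the only ones whose libraries did not overlap, which 6.95% of all genes showed. Lat was at 757, 761, 725 and 745 CPM in WT Tn and 784, 819, 944 and 892 CPM in Aim2-/- Tn (log2 change 0.21, 95% interval 0.02 to 0.39, adjusted p = 0.437). Cd5 was at 344, 333, 361 and 360 CPM in the WT libraries, below the 395, 379, 460 and 370 CPM of Aim2-/- Tn (0.20, 0.0072 to 0.40, adjusted p = 0.473). Cd6 was at 479, 482, 488 and 484 CPM in the WT libraries, against 572, 516, 620 and 502 CPM in Aim2-/- Tn (0.20, 0.0044 to 0.39, adjusted p = 0.478). In each the highest library was Aim2-/- Tn library 3, which was also highest of its group for the 4 CD3 and zeta chains, Cd2, Cd4, Lck and Zap70.

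**Figure D4:**
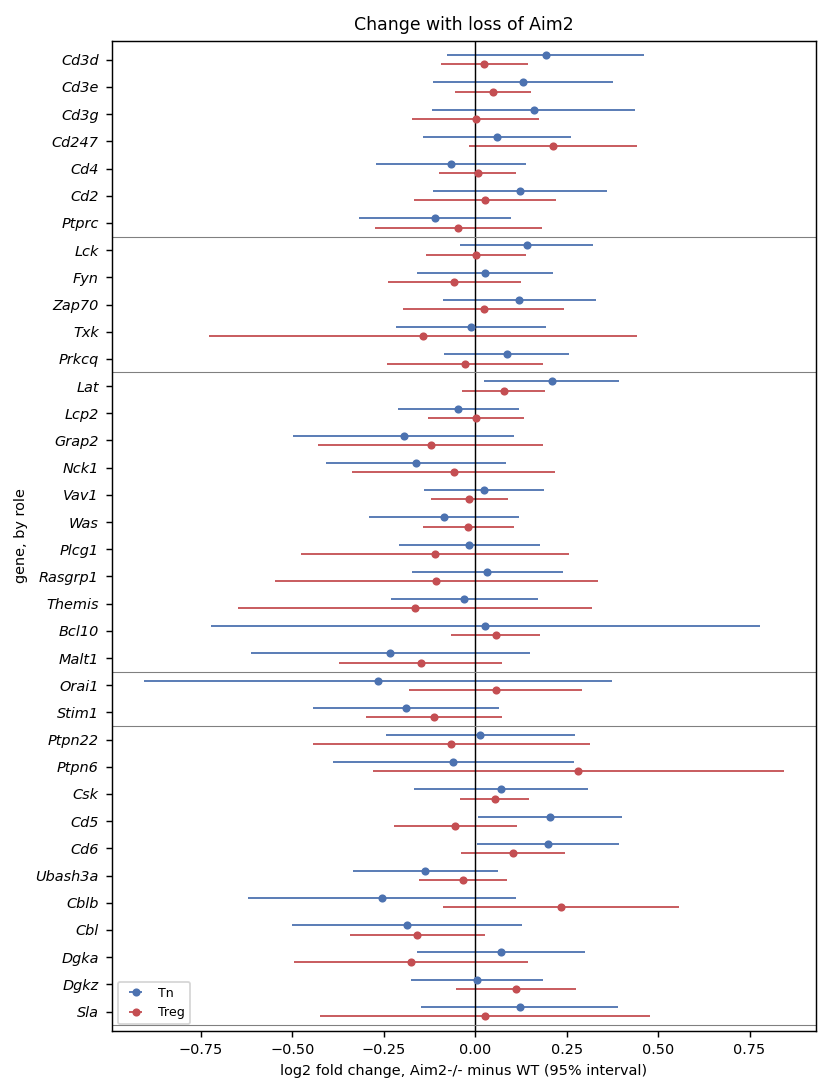
Log2 fold change from WT to Aim2-/- (x axis) of each member (y axis, lines between role classes) in Tn and Treg cells, with 95% intervals from edgeR. All points lie within 0.28 of 0, and the widest intervals are those of Bcl10 and Orai1 in Tn and of Ptpn6 and Txk in Treg cells.

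Bcl10, Orai1 and Malt1 had their widest spread in WT Tn, and their values are given as genes picked out after they were seen. Bcl10 was at 157, 176, 65.8 and 73.9 CPM in WT Tn and 144, 114, 100 and 122 CPM in Aim2-/- Tn, so that the Aim2-/- libraries lay between the pairs of WT libraries. Orai1 was at 52.5, 65.6, 28.8 and 27.5 CPM against 42.9, 31.4, 32.2 and 37.8 CPM, and Malt1 at 189, 206, 125 and 132 CPM against 163, 132, 119 and 138 CPM. The naïve cell marker Ccr7 divided the WT Tn libraries the same way, at 1381, 1564, 411 and 418 CPM, and Ctla4 at 79.5, 80.0, 12.8 and 17.6 CPM. Without WT Tn libraries 1 and 2, Bcl10 was called higher in Aim2-/- Tn (log2 change 0.77, SE 0.14, adjusted p = 0.0236), in a comparison of 2 with 4 libraries that called 392 genes. Without libraries 3 and 4 instead, no member was called.

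**Figure D5:**
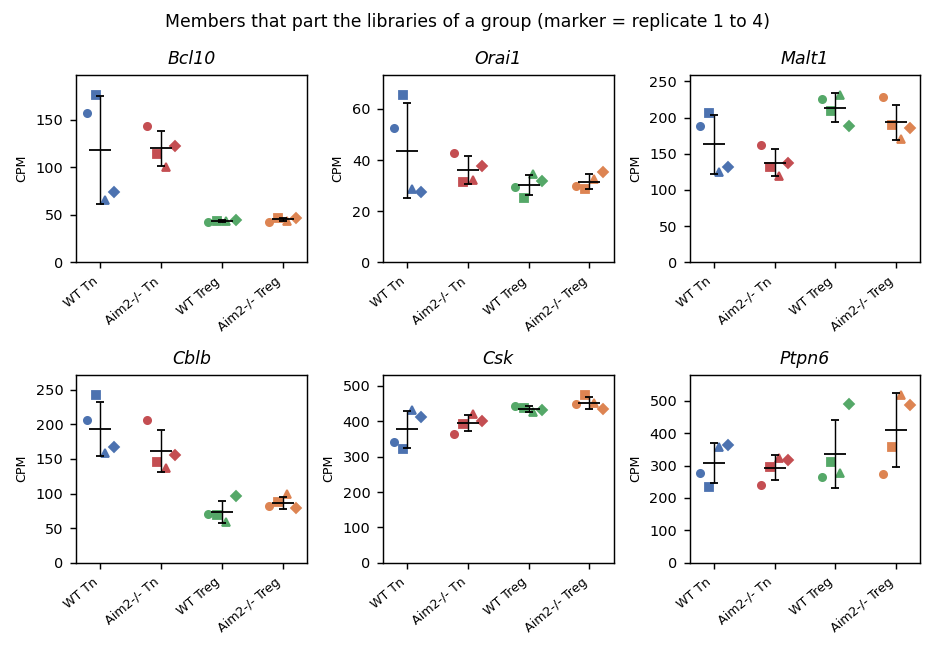
CPM (y axis from 0) of 6 members in each library of the 4 groups (x axis); marker shapes are replicates 1 to 4, black bars the mean and SD. WT Tn libraries 1 and 2 lie above 3 and 4 for Bcl10, Orai1, Malt1 and Cblb and below them for Csk and Ptpn6, and 3 of 8 Treg libraries are high for Ptpn6.

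In Treg cells again none of the 36 members passed the test between genotypes, where 0.219% of 13221 genes did. None had an unadjusted p under 0.05 in edgeR either (2.31% of all genes), none was called by DESeq2 or limma-voom, and the libraries of the genotypes overlapped for all 36, where 2.26% of all genes showed no overlap. Log2 changes ran from -0.18 (Dgka) to 0.28 (Ptpn6), with 31 of the 36 intervals within 0.5 of 0. The smallest p belonged to Cd247, the member nearest to Aim2 on chromosome 1, at 136, 138, 116 and 165 CPM in WT Treg, against 148, 162, 173 and 161 CPM in Aim2-/- Treg. The Aim2-/- values were higher on average but overlapped (0.21, 95% interval -0.02 to 0.44, adjusted p = 0.999), and in Tn the Cd247 difference was 0.06 (-0.14 to 0.26). Cbl was at 246, 271, 246 and 240 CPM in WT Treg, against 236, 250, 223 and 193 CPM in Aim2-/- Treg (-0.16, -0.34 to 0.03). Cd6 was at 305, 302, 289 and 326 CPM in WT Treg, against 302, 317, 336 and 361 CPM in Aim2-/- Treg (0.10, -0.04 to 0.24). Both overlapped between genotypes.

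The test of whether the genotype difference changed with culture, on all 16 libraries, called none of the 36 members by edgeR, DESeq2 or limma-voom, where edgeR called 0.0205% of 14669 genes. At an unadjusted p under 0.05 there were 2 members, against 3.49% of all genes. For Cblb the interaction was 0.50 (95% interval 0.01 to 0.99, adjusted p = 1.00), since Aim2-/- values were lower than WT in Tn (-0.26) and higher in Treg (0.23), each with overlapping libraries. It was 0.26 without WT Tn libraries 1 and 2 and 0.69 without 3 and 4, and called in neither. For Cd5 it was -0.25 (-0.50 to -0.0032), as the Aim2-/- libraries were higher in Tn and not in Treg, where Cd5 was at 338, 302, 356 and 294 CPM in WT libraries, against 335, 297, 292 and 321 CPM in Aim2-/- cells. Dgka came next (-0.24, -0.61 to 0.14). Without WT Tn libraries 1 and 2 the interaction was called for Bcl10 (-0.71, SE 0.14, adjusted p = 0.0407). The calls that culture gave in 1 genotype and not in the other (Cd2, Malt1, Ptpn6, Csk, Cd5 and Cbl) therefore had no called difference between genotypes. None of the 121 other genes of the pathway was called in either genotype comparison or in the interaction. Of all genes, 0.231%, 0.219% and 0.0205% were called there. Under an unadjusted p of 0.05 were 15, 6 and 1 of the 121, 117 and 121 tested. Among all genes that share was 10.3%, 2.31% and 3.49%.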

How the data were processed

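Gene expression in 16 libraries (4 in each group) was taken from stranded mRNA sequencing. Per the labels and the study's methods, the authors aligned single-end reads with STAR (genome GRCm38) and ran RSEM on the GENCODE m15 annotation, and they deposited RSEM's expected counts per gene, neither normalized nor filtered. Tool versions and the strand setting are not given in the sources used here. Counts can be fractions because RSEM divides reads that match several genes, and 9 of the members had such values in at least 1 library.

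Groups came from the deposited titles and source names. Members and gene lists were chosen with earlier results of these data known. The deposited expected counts were rounded first. A gene entered a comparison when 4 or more of its libraries had 10 or more counts, and was tested with the two-sided quasi-likelihood test of edgeR 4.0.16 (robust, TMM factors, R 4.3.3), with Benjamini-Hochberg adjustment over all genes tested and a threshold of 0.05. Genotypes were compared within each state, states within each genotype (8 libraries each), and the interaction on all 16. The scripts were tested on simulated data. CPM values use TMM factors over the 16 libraries. Levels per kb use the joint length of all annotated exons of a gene in GENCODE M21, which held 98.9% of the genes. That length is not the length of the transcripts expressed. Reads carried no molecular identifiers, so floors cover counting error only. All 36 members are named. Values in every library are given for the 3 members with the smallest p in each genotype comparison and the interaction, for the largest falls and rises with culture in WT in each role class (at most 2 each) among members called alike in both genotypes, and for Cd247. From each list of other pathway genes the 2 largest rises and falls chosen likewise are named, apart from 3 that are not reported here. Alternatives were DESeq2 1.42.0, limma-voom (limma 3.58.1), RLE factors, library totals, other count filters, the replicate number as a block, all 16 libraries in 1 fit, and leaving out libraries.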

Additional observations from a re-analysis of the deposited data

Results flagged for a closer look

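Among the 144 groups of 4 libraries (36 members in 4 groups), 4 held a library farther from the rest than Dixon's 95% limit for 4 values, fewer than the 1 in 20 that chance gives. Cd3e was at 394 CPM in Aim2-/- Tn library 3 and at 334 to 344 CPM in the other libraries of that group. Zap70 was at 268 CPM in the same library, against 216 to 224 CPM. Lck was at 1081 CPM in WT Tn library 1, against 1032 to 1036 CPM. Ubash3a was at 113 CPM in WT Tn library 2, against 98.0 to 99.2 CPM. Of these members only Ubash3a has a culture call that leaving out a single library ended, and that library was WT Tn library 1, not the outlying one.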

How the results depend on the processing

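Of 1818 recomputed values, 1718 kept their direction and their side of the threshold (for medians, stayed within 1 SD of the library medians). No member was called in a genotype comparison or the interaction by any tool, scaling, filter or block, or without any single library. Without WT Tn libraries 1 and 2, an alternative chosen after seeing the data like the other 2 that leave out several libraries, 1 member (Bcl10) was called higher in Tn and 1 (Bcl10) lower in the interaction, and the members' median was -0.023 in Tn. The median culture change in WT was -0.65 with DESeq2, -0.65 with RLE factors, -0.64 with no filter, -0.76 without WT Tn libraries 3 and 4 and -0.76 without 1 and 2. Without the 3 Treg libraries that stood apart, the medians were 0.045 (genotype in Treg), -0.68 (culture in Aim2-/-) and 0.050 (interaction). Members called higher with culture numbered 4 in WT with all 16 libraries in 1 fit, and 2 in Aim2-/- cells with 10 counts required in every library. Leaving out 1 library at a time, medians ran from -0.0073 to 0.024 (genotype in Tn), -0.74 to -0.63 (culture in WT), -0.83 to -0.70 (culture in Aim2-/-) and -0.050 to 0.029 (interaction), and members called higher in Aim2-/- cells from 2 to 4.

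Values that changed sign were small and not past the threshold. Without WT Tn libraries 1 and 2, the culture change in WT was -0.18 for Ptpn6, 0.023 for Orai1 and -0.035 for Csk, and without the 3 Treg libraries it was 0.012 for Lcp2 and -0.10 for Ptpn6. For Aim2-/- cells Nck1 was at 0.020 with DESeq2, 0.020 with RLE factors, 0.038 with no filter and 0.0064 with all 16 libraries in 1 fit, and Lcp2 was at -0.019 with 10 counts in every library. Leaving out 1 library at a time, Lcp2 ran from -0.095 to 0.012 and Ptpn6 from -0.10 to 0.24 with culture in WT, Lcp2 from -0.066 to 0.094 and Nck1 from -0.11 to 0.11 with culture in Aim2-/- cells, and Cd247 from -0.0057 to 0.099 by genotype in Tn. The causes were not tested, beyond the libraries left out.

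Correlations between deviations of same-numbered libraries from their group means ran from -0.04 to 0.40. None of the 4 comparisons was over 0.1 in every number, and not every library matched its own number best. Between genotypes in Treg cells they were 0.40, 0.23, -0.01 and 0.35 for numbers 1 to 4. With 4 libraries in a group, these values cannot settle whether the replicate numbers pair the libraries. With the replicate number as a block, 3 members were called higher and 27 lower with culture in WT, and 3 and 27 in Aim2-/- cells, and none by genotype or interaction. In the block Malt1 was called in WT (0.39, adjusted p = 0.0438) and Csk was not in Aim2-/- cells (0.19, adjusted p = 0.0540). The members' 95% intervals for the genotype difference had a median width of 0.42 log2 units in Tn and 0.38 in Treg cells.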
